A study of Mus musculus with 4 samples.

Results

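Subcluster 4 of the group 2 innate lymphoid cells (ILC2s) was a group of cells in which genes of DNA replication were widespread. It is described here through the 802 genes that the authors listed as its markers, of the 2629 genes listed for any of 10 ILC2 subclusters. The members were taken as all genes entered for subcluster 4 in the table of subcluster markers, and a gene so entered is called listed. The cells came from wild-type BALB/c mice that received PBS or rIL-33 (0.5 µg, given i.p.) every day for 5 days. Liver and lung were each sampled under both treatments, so that 4 groups (PBS liver, PBS lung, rIL-33 liver and rIL-33 lung) had 1 library each. The sort kept lineage-negative cells with CD127, Thy1 and ST2, and, per the study's methods, tissues of several mice were pooled for each group, so that the libraries hold no replicate animals that can be told apart. The marker tables pooled the 4 libraries, so neither organ nor treatment could be compared and no test across libraries was possible. The tables hold neither cell numbers nor sequencing depth, a total stated elsewhere was not used, and no counting interval is given.

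ILC2s are tissue lymphocytes without antigen receptors that answer the alarmin IL-33 through its receptor ST2, encoded by *Il1rl1*, and release type 2 cytokines such as IL-13. Before a cell divides, it licenses origins of replication by loading the MCM helicase in G1, copies its DNA in S phase, and then condenses and separates the chromosomes in G2 and M phase. Granzymes and the granule protein NKG7 are better known from NK cells and cytotoxic T cells.

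The value given for a gene is the authors' share of cells in which it was detected (value over 0), first in subcluster 4 and then in all other ILC2s together. Shares from the authors' table of all cell types, given further below, are not read as detection. The subcluster was itself found from expression and its list is a comparison of the same cells, so these shares are a description of how the members differ and not evidence that they do. Listing covered 30.5% of the genes in the table, and nothing is read from that percentage, because listing is what defined the members. Solved from the shares, subcluster 4 held 9.23% ± 0.0113 (SE of the fit over 768 genes, without sampling error) of all ILC2s.

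All 5 markers proposed for the subcluster were on its list, at very different levels. *Stmn1*, which encodes the microtubule-destabilizing protein stathmin, was found in 77.2% of subcluster 4 cells and in 9.8% of the other ILC2s, the widest gap of any member. *Top2a*, the topoisomerase that untangles replicated chromosomes, was found in 71.5% and 26.2%. The chemokine gene *Ccl5* stood at 62.6% and 41.8%. *Nkg7* stood at 30.5% and 11.7%. *Gzma*, which encodes granzyme A, stood at 25.8% and 9.7%. *Gzma* was thus detected in a minority of the cells whose label carries its name, and subcluster 4 held 21.3% of all ILC2s with *Gzma*. Its share was close to the lower edge of the list: no gene entered the table for a subcluster unless it reached 25% in that subcluster or outside it, and only *Ms4a4b*, at 25.6%, had a lower share among the members (*Ms4a4b* was chosen after its values were seen). In the GENCODE vM21 annotation of mm10, *Stmn1* lies at chr4:134468320-134473843 and *Nkg7* at chr7:43437073-43438249 on the plus strand. *Top2a* (chr11:98992943-99024189), *Ccl5* (chr11:83525778-83530518) and *Gzma* (chr13:113093825-113100981) lie on the minus strand. Genes just outside the list have no value in the table for subcluster 4.

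To show what lies upstream of the genes that carry this profile, the 180 bases before the start site are printed for 3 replication genes, for *Top2a* and for *Gzma*. They were taken from the RefSeq promoter table (build GRCm38.p6) and run 5′ to 3′ on the strand of the gene. Capitals mark every match to 3 motifs on either strand: the E2F element (TTCCCGC or TTGGCGC), the CCAAT box (CCAAT) and the cell cycle homology region, or CHR (TTTGAA). An E2F match and a CCAAT match on the opposite strand can share the letters TTGG. The windows are chr8:75109329-75109508 on the plus strand for *Mcm5*, chr1:128359706-128359885 on the minus strand for *Mcm6*, chr11:98907971-98908150 on the plus strand for *Cdc6*, chr11:99024190-99024369 on the minus strand for *Top2a* and chr13:113100982-113101161 on the minus strand for *Gzma*.
Mcm5: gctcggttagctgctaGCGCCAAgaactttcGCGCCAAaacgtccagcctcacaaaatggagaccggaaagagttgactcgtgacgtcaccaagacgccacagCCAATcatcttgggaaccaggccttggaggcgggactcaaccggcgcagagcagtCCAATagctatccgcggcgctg
Mcm6: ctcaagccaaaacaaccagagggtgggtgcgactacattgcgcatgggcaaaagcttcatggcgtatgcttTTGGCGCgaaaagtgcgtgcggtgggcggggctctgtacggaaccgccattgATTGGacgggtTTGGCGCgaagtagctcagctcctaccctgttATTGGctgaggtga
Cdc6: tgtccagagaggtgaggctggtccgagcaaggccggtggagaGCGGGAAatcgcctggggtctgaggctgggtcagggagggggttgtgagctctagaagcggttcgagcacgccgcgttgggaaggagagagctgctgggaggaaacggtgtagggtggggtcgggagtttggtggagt
Top2a: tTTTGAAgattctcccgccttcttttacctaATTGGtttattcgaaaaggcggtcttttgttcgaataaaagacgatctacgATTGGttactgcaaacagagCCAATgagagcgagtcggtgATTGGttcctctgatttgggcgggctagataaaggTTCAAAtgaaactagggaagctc
Gzma: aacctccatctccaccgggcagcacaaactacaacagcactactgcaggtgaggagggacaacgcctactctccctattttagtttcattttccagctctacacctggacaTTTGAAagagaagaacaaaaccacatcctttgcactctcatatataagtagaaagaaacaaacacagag

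*Mcm5* and *Mcm6* each held 2 E2F matches and 2 CCAAT boxes. In *Mcm5* the E2F matches began at -164 and -149 from the start site, and in *Mcm6* at -109 and -46. *Cdc6* held a single E2F match, at -138 from the RefSeq start. Its window lies inside the gene as GENCODE vM21 annotates it (chr11:98907801-98923940), so sequence upstream of that 5′ end is not shown. *Top2a* held 4 CCAAT boxes and 2 CHR matches, the nearer CHR at -23, and no E2F match in these letters. *Gzma* held a CHR match at -69 and neither of the other motifs in this window. These are matches of letters and were not tested as binding sites.

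The 802 members had a median share of 79.8% in subcluster 4 and 38.9% in the other ILC2s, and all 802 were found in a larger share of subcluster 4 cells. The median gap was 34.1 percentage points (quartiles 25.9 and 38.4). In the other subclusters the median gap of the listed genes ran from -21.3 points in subcluster 5, where 22 of 1000 listed genes had the larger share inside, to 23.1 points in subcluster 7. Depth per cell is not in the tables, and its part in a gap that runs across all members was not tested. A share cannot rise above 100%, so that the gap narrowed for common genes: 41 members were already in at least 90% of the other ILC2s and 45 had gaps under 10 points. The 5 smallest gaps were those of *Ppia*, *Ptma*, *Hspa8*, *Hsp90ab1* and *Pfn1*, among which *Ppia* (cyclophilin A) stood at 100% against 98.6%. At the other end, 44 members were in at most 5% of the other ILC2s.

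**Figure D1:**
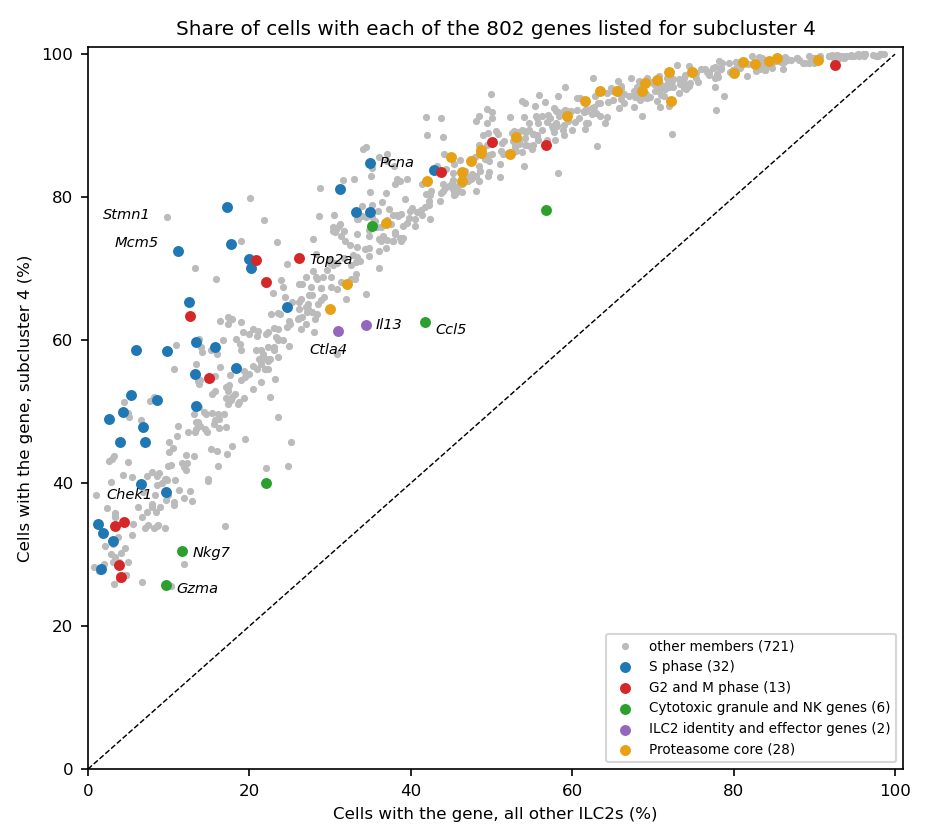
Each point is 1 of the 802 genes listed for subcluster 4, by the percentage of cells with the gene in all other ILC2s (horizontal) and in subcluster 4 (vertical), coloured by gene list (grey, no coloured list); the dashed line marks equal shares. All points lie above the line, most S phase genes lie along the upper left edge of the cloud, and *Gzma* (25.8% against 9.7%) and *Nkg7* (30.5% against 11.7%) lie among the members nearest the lower edge.

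Genes of S phase were listed more fully than those of G2 and M phase. Of 43 S phase genes, 32 were listed for subcluster 4, and none of these 32 was listed for any other subcluster. Their median share was 57.3% against 11.8% in the other ILC2s. The exception in the table was *Atad2*, listed for subcluster 5 alone and found in fewer of its cells (22.4% against 48.4% of the others), and 10 were listed nowhere.

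The 6 subunits of the MCM helicase were all members and lay close together, at 65.4% to 79.9% of subcluster 4 cells against 11.1% to 20.1% of the others. *Mcm6* stood at 78.6% against 17.2%. *Mcm5* stood at 72.5% against 11.1%. The subunit in the most cells was *Mcm3*, at 79.9% against 20.1%. Behind the helicase came the sliding clamp *Pcna*, at 84.8% against 34.9%, and the DNA ligase *Lig1*, at 73.9% against 18.9%. *Prim1*, the catalytic subunit of primase, stood at 58.5% against 9.8%. *Gins2* and *Cdc45*, which complete the active helicase, were rarer in both groups, at 52.3% against 5.3% and 28.0% against 1.6%. *Cdc6*, which loads the helicase, was at 33.0% against 1.8%. Of 46 replisome and licensing genes, a list chosen after the values were seen, 35 were listed for subcluster 4 and none of the 35 elsewhere.

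The largest ratios of shares belonged to genes that were rare elsewhere, among them *Cdc6* and *Cdc45* above. *Chek1*, the checkpoint kinase that answers stalled forks, was in 38.3% of its cells and 1.0% of the others, a ratio of 38.3. Although the subcluster was 9.23% of ILC2s, it held 79.6% of all ILC2s with *Chek1* (78.7% to 80.4% from the rounding of the shares). *Fignl1* stood at 28.2% against 0.8%. The kinetochore genes *Cenph* (27.7% against 1.4%) and *Spc24* (36.5% against 2.3%) were likewise found in under 5% of the other ILC2s. *Ung*, which removes uracil from DNA, stood at 49.0% against 2.6%, and *Chaf1a*, a subunit of the factor that places histones on new DNA, at 43.1% against 2.6%. *Psmc3ip*, a recombination cofactor, stood at 31.2% against 2.1%. In all, 27 of the 802 members had more than 50% of their positive ILC2s inside subcluster 4, while the median member had 16.6%. For most members, then, the larger number of positive ILC2s lay in other subclusters.

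Genes of G2 and M phase were listed less fully. Of 54, 13 were listed for subcluster 4, at a median of 68.1% against 20.8%, and 38 were listed for no ILC2 subcluster. The 13 included *Cks1b* (63.4% against 12.6%) and *Cks2* (68.1% against 22%), small partners of cyclin-dependent kinases. The proliferation antigen gene *Mki67* stood at 54.7% against 15%. *Cdk1*, the kinase that drives entry into mitosis, was at 34.0% against 3.4%, so that 50.4% of the ILC2s with *Cdk1* lay in subcluster 4. *Cdca8* (34.6% against 4.5%), *Tacc3* (28.5% against 3.8%) and *Ncapd2* (26.9% against 4.1%), which act on the mitotic spindle and condensed chromosomes, were the other rare members. *Top2a* was also listed for subclusters 6 and 8, at 49.0% and 49.4% of their cells, and reached 25% in the subclusters that did not list it. Among those listed for none were genes of mitosis itself, such as *Birc5*, *Ube2c*, *Ccnb2*, *Cenpf*, *Tpx2*, *Aurkb*, *Bub1* and *Cdc20*. A gene that is not listed may be lower, unchanged, too rare or not tested, and the table does not tell these apart. Among all sorted cells the authors named a proliferating type apart from ILC2s. Whether cells in mitosis were assigned to it before the ILC2s were subclustered was not tested.

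**Figure D2:**
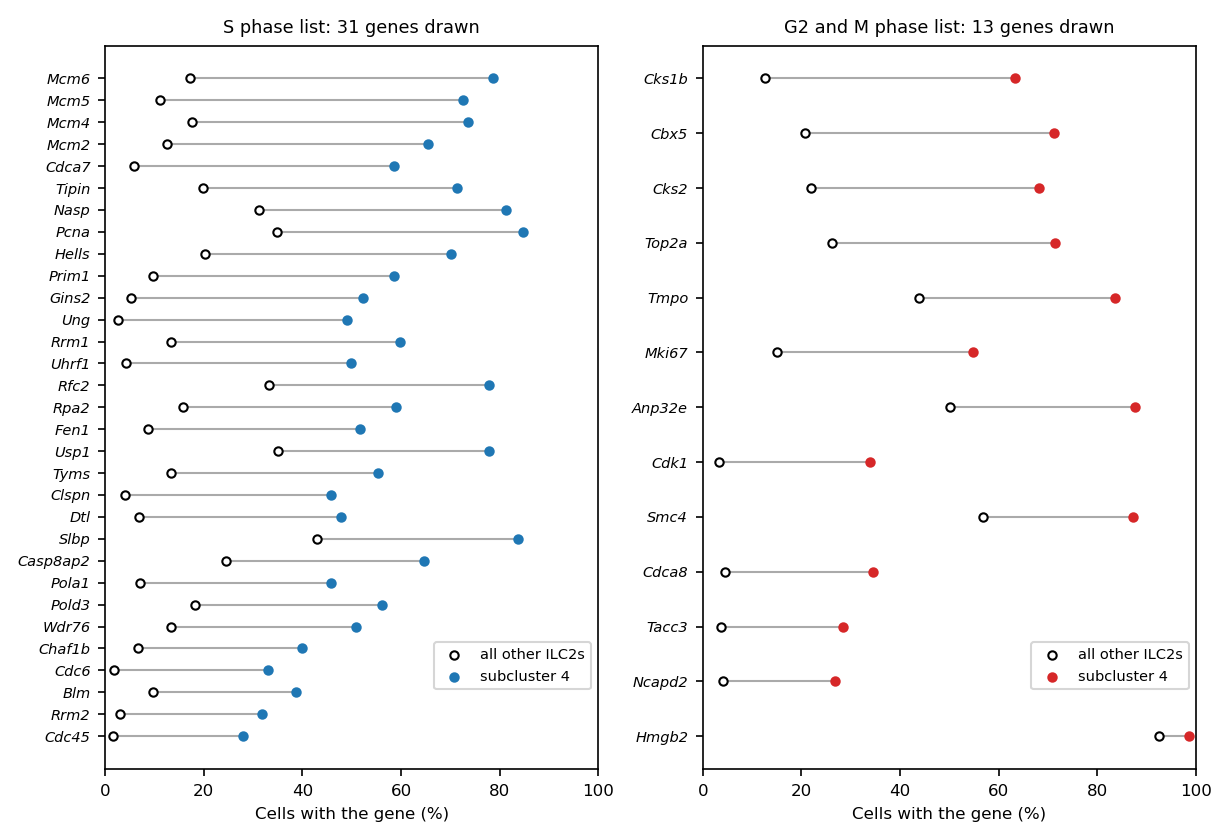
Percentage of cells with 31 of the 32 listed genes of the S phase list (left) and with each listed gene of the G2 and M phase list (right), in subcluster 4 (filled) and in all other ILC2s (open), ordered by the gap. The S phase genes drawn reached 28.0% to 84.8% of subcluster 4 cells and the 13 G2 and M phase genes 26.9% to 98.5%, with *Hmgb2* in 92.6% of the other ILC2s as well.

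Among 24 cyclins, cyclin-dependent kinases and their regulators, 5 were listed for subcluster 4, and these act from G1 into S phase or, for *Cdk1*, in mitosis. *Cdk4*, a G1 kinase, stood at 88.7% against 42% and was also listed for subcluster 7 (74%). *Cdk6*, the related G1 kinase, stood at 82.9% against 49.6%, and was also listed for subclusters 2 (67.4%), 6 (75.2%) and 8 (79.8%). *E2f1*, the transcription factor of S phase entry, stood at 43.0% against 5.0%, and *Ccne1*, which encodes cyclin E1, at 31.5% against 3.1%. The D-type cyclins *Ccnd2* and *Ccnd3* and the inhibitors *Cdkn1a*, *Cdkn1b* and *Cdkn2d* were not listed for subcluster 4. *Ccnd3* and *Cdkn1b* were listed only for subcluster 5, in fewer of its cells (31.4% against 55% and 38.6% against 71.5%), and *Ccnd2* for subcluster 5, likewise in fewer cells (54.2% against 78.1%), and for subcluster 0 at nearly equal shares (77.2% against 77.1%). *Cdkn1a* (subclusters 3, 7 and 8) and *Cdkn2d* (subcluster 1) were found in more cells of the subclusters that listed them. *Ccna2* and *Ccnb1*, the cyclins of S phase to mitosis, were listed for no ILC2 subcluster.

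Genes that package DNA accompanied those that copy it. Of 35 genes of chromatin assembly and histones, 20 were listed, at a median of 82.7% against 34.8%. *Hmgn2*, a nucleosome-binding protein gene, stood at 76.8% against 21.8%. *Cbx5* (heterochromatin protein 1 alpha) stood at 71.2% against 20.8%, *Nasp* (a histone chaperone) at 81.2% against 31.2%, and *Dnmt1* (the maintenance DNA methyltransferase) at 84.1% against 35.2%. *Uhrf1*, which brings that enzyme to new DNA, stood at 49.9% against 4.3%. All 10 Hist1 genes on the list, which encode linker and replication-dependent core histones, were listed nowhere. This does not show that the cells lacked their transcripts. Per the study's methods the libraries were made from poly(A) RNA, and how well they capture histone transcripts was not tested. Beyond *Stmn1*, the tubulin genes *Tuba1b* (87.0% against 34.4%) and *Tubg1* (48.5% against 13.4%) were members. In all, 5 of the 15 genes of tubulins and their regulators were members, and 8 of the 15 were in the table.

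The supply of building blocks for DNA was a further group, on a list chosen after the values were seen. Of 35 genes of serine, folate and nucleotide synthesis, 25 were listed for subcluster 4, 23 of them nowhere else, at a median of 58.4% against 16%. *Phgdh*, the first enzyme of serine synthesis, stood at 68.5% against 15.9%. *Dctpp1* and *Dtymk*, which act on deoxynucleotides, stood at 85.6% against 36.0% and 82.5% against 32.9%. *Impdh2*, of guanine nucleotide synthesis, stood at 91.2% against 41.9%. The ribonucleotide reductase subunit *Rrm1* was at 59.8% against 13.4%, and *Tyms*, which makes thymidylate, at 55.3% against 13.3%.

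Genes of protein turnover, ribosome assembly, splicing and energy production were further groups of members. Counts are out of the full list unless the table is named, and 30.5% of all genes in the table were members. In the table were 31 proteasome, 19 chaperonin and HSP90, 15 nucleolar and nuclear transport, and 10 glycolysis genes. The proteasome contributed 28 of 36 genes (median 93.5% against 62.5%), among them *Psmd14* at 85.6% against 45% and *Psmd6* at 82.3% against 42.0%. The chaperonin and HSP90 list contributed 18 of 19, led by the mitochondrial chaperone *Hspa9* at 77.3% against 34.0%, and 10 genes of that list were listed for subcluster 7. Nucleolar and nuclear transport genes contributed 15 of 17, among them *Nop56*, of the box C/D ribonucleoproteins, at 83.0% against 35.1% and *Nhp2* at 91.0% against 43.7%. Glycolysis contributed 7 of 19, led by *Tpi1* at 91.9% against 50.1%. Of the 62 respiratory chain and ATP synthase genes in the table, 49 were members, and *Ndufb6*, of complex I, had the widest gap with 87.3% against 49.5%. In a list chosen after the values were seen, 27 of the 30 mitochondrial ribosomal protein genes in the table were members, led by *Mrps28* (75.8% against 30.3%). So were, on another such list, all 11 spliceosomal Sm and related Snrp genes in the table, led by *Snrpa1* (80.7% against 35.0%). Cytoplasmic ribosomal protein genes were absent from the table and from the authors' marker table of all cell types. How the subclusters differ in them is therefore not known here. None of the AP-1 family list (0 of 9) or of the quiescence and stress list (0 of 19) was a member. Subcluster 3 listed 6 and 15 of them, 19 of these 21 with the larger share inside. Subclusters 6 and 9 also listed 0 of both lists, so this was not particular to subcluster 4.

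**Figure D3:**
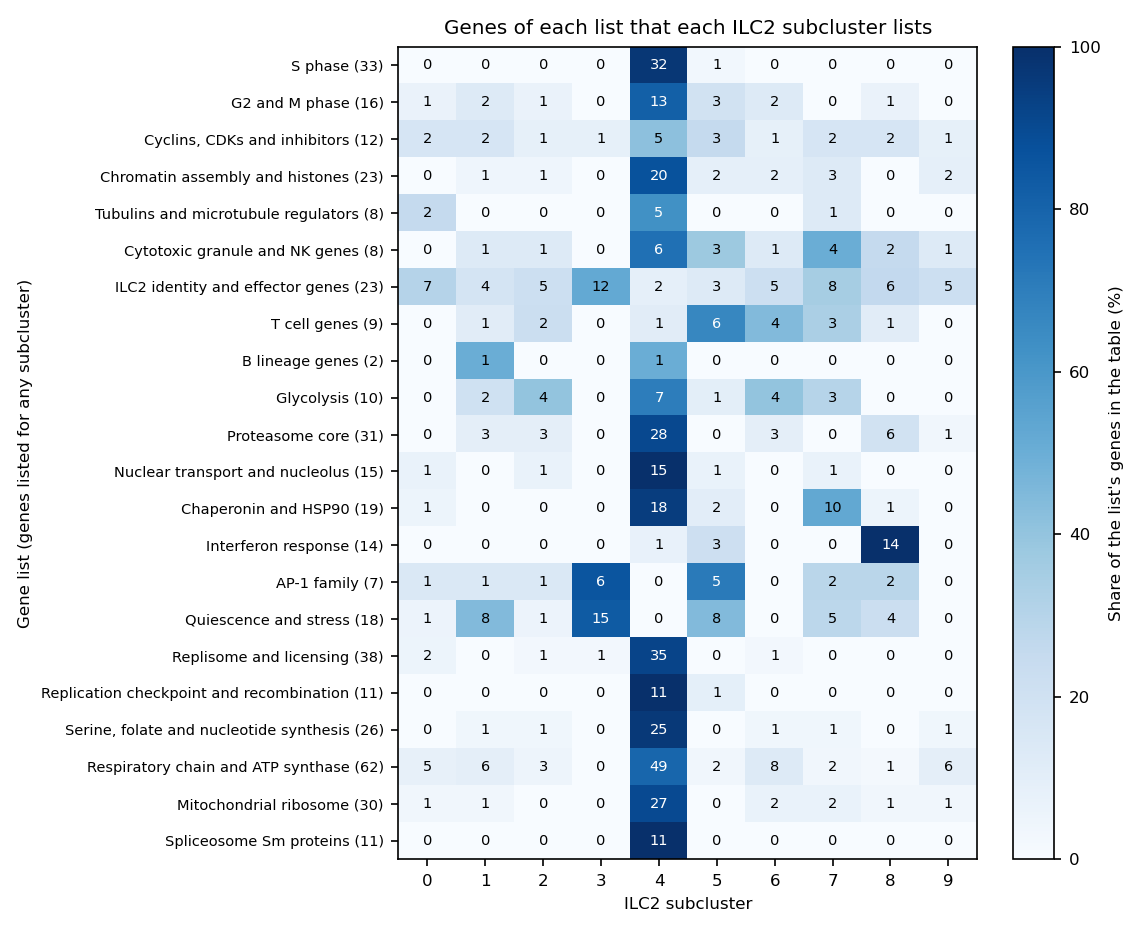
Number of genes of each list (rows, with the number listed for any subcluster in brackets) that each of the 10 ILC2 subclusters lists (columns), shaded by the percentage of the list's genes in the table. Subcluster 4 lists 32 of 33 S phase genes in the table. Like subclusters 6 and 9, it lists none of the AP-1 or quiescence and stress genes. Subcluster 8 lists 14 of 14 interferon response genes against 1 in subcluster 4.

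Cytotoxic genes formed a small group. Of 30 genes of cytotoxic granules and NK cells, 22 were listed for no subcluster and 8 were in the table. Of these 8, 6 were members, where 30.5% of all genes in the table were. The others, *Fcer1g* and *Tyrobp*, were listed for subcluster 7 only. *Il2rb*, the receptor subunit for IL-2 and IL-15, had the widest gap with 75.9% against 35.2%. Its only other listing was for subcluster 5, with a smaller share inside (37.1% against 39.1%), and *Gzma* was listed for subcluster 4 alone. *Serpinb6a*, a protease inhibitor, stood at 78.2% against 56.7% and was also listed for subclusters 2, 6, 8 and 9. Among the cell types of all sorted cells, it was listed for ILC3, gdT_TypeIII_CD163l1 and gdT_TypeIII_ITGAE, and not for NK or ILC1. *Ctsw*, which encodes the protease cathepsin W, was in 40.0% of subcluster 4 cells and in 42.5% of subcluster 7 cells. *Nkg7* followed the same order: 40.0% of subcluster 7 cells had it, above 30.5% for subcluster 4, 26.3% for subcluster 5 and 10.5% for the subclusters that did not list it. *Ccl5* was found in 62.6% of subcluster 4 cells, beside 60.7% for subcluster 8 and 51.2% for subcluster 1, with 38.9% for the rest. The differences between these subclusters were not tested. The defining NK cell genes *Ncr1*, *Eomes*, *Klrd1*, *Klrb1c*, *Prf1* and *Gzmb* were listed for no ILC2 subcluster.

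Of the genes that define or arm ILC2s, 2 of 28 were members. *Il13*, the type 2 cytokine, was found in 62.1% of subcluster 4 cells, below subcluster 8 (69.7%), beside subcluster 7 (60.5%) and above subclusters 2 (56.5%) and 1 (52.8%). In the 5 subclusters that did not list it, the share was 17.8%. *Ctla4*, the inhibitory receptor, stood at 61.3% in subcluster 4, between subcluster 8 (73.0%) and subclusters 6 (55.6%), 2 (55.4%) and 1 (50.9%), and at 10.9% in the rest. Subcluster 4 held 15.5% of the ILC2s with *Il13* and 16.7% of those with *Ctla4*, although both genes were listed for larger subclusters as well. The other 21 genes of the list that were in the table were listed elsewhere. They included the ILC2 regulator *Gata3*, found in 90.9% of all ILC2s and listed for subclusters 0 and 3, and *Il1rl1*, found in 89.2%, so that the label of ILC2 could be checked for the whole population but not for subcluster 4 itself.

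Few genes of the T cell, B lineage and myeloid lists were members. The gate was set against T, B and myeloid surface proteins, and the authors also took out cells with markers of other types before subclustering, so these counts do not bear on the sorted cells as a whole. Of 18 T cell genes 1 was a member, the kinase gene *Lck* (40.3% against 14.9%), and the CD3 genes *Cd3e* and *Cd3g* and the receptor gene *Trdc* were listed for other subclusters, with *Cd3e* in 32% of subcluster 5 cells. Of 12 B lineage genes 1 was a member, the MHC class II gene *H2-Ab1* (42.1% against 22.1%), while *Cd79a*, *Ms4a1*, *Cd74*, *H2-Aa* and the immunoglobulin genes of the list were listed nowhere. None of 15 myeloid and basophil genes was in the table. Their part in the *Gzma* and *Nkg7* values was not tested.

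**Figure D4:**
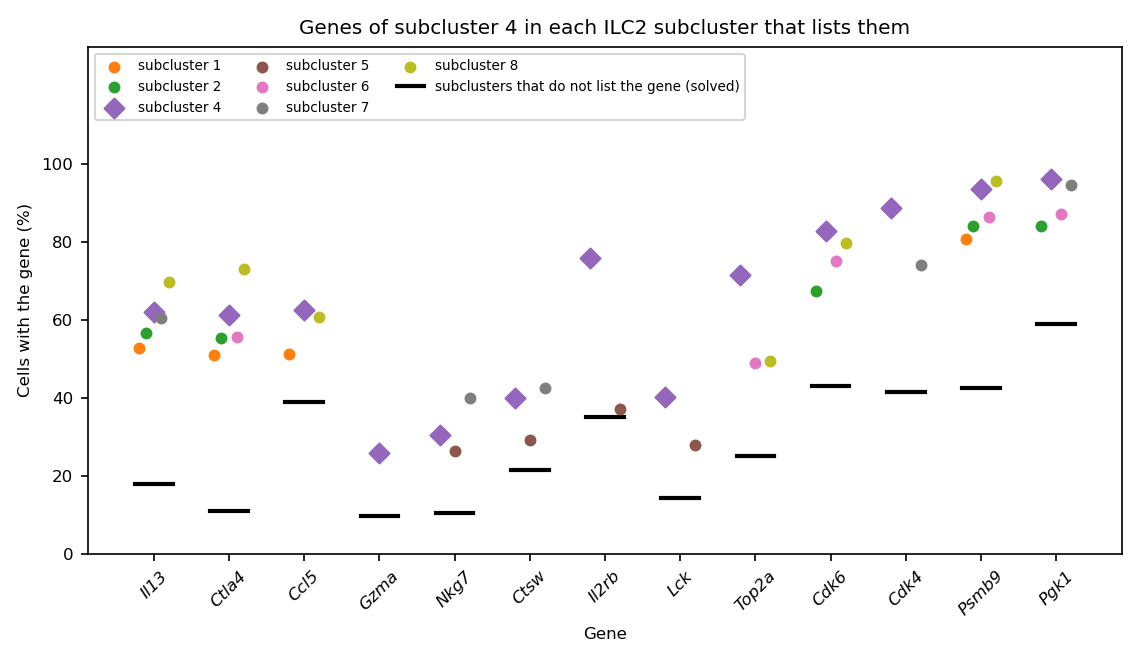
Percentage of cells with 13 genes of subcluster 4 in each subcluster that lists the gene (coloured; diamonds, subcluster 4) and in the pool of all subclusters that do not (black bars, solved from the subcluster sizes). Subcluster 4 is highest for *Top2a* (71.5%) and lies below subcluster 8 for *Il13* (62.1% against 69.7%) and below subcluster 7 for *Nkg7* (30.5% against 40.0%).

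Across the members as a whole, 609 (75.9%) were listed for subcluster 4 alone, beside 70.8% of all genes in the table that were listed for a single subcluster, and 193 were listed for at least 1 other subcluster as well. A listing can also mark a gene found in fewer cells of a subcluster, and 171 of the 193 had the larger share inside in at least 1 of the other subclusters that listed them. The largest number was shared with subcluster 7, with 75 genes, which were 9.35% of the members and 27.8% of the list of subcluster 7, no more than the 30.5% of the whole table. Subclusters 6, 1 and 2 shared 52, 51 and 35 genes (27.4%, 14% and 26.7% of their lists). Subcluster 3 shared 0 of its 237.

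The cell type table, in which the authors compared each of 21 cell types with all other sorted cells, held a type called Prolifelation cell with 513 listed genes, 30.6% of the 1679 in that table. It and subcluster 4 come from the same libraries, so their likeness is a description. Of 451 members that were in both tables, 325 were listed for Prolifelation cell, which were 72.1% of those members and 90.8% of the 358 Prolifelation cell genes in both tables. Of all 820 genes in both tables, 43.7% were listed for Prolifelation cell and 55% for subcluster 4. The next type, MMP_LMPP (a progenitor type), shared 209 genes (46.3% and 74.4%, with 34.3% of the 820 listed for it), and the type called ILC2 shared 7 (1.55% and 6.03%, with 14.1% listed for it). Among the 126 members in both tables that were not shared was *Mrps28*.

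**Figure D5:**
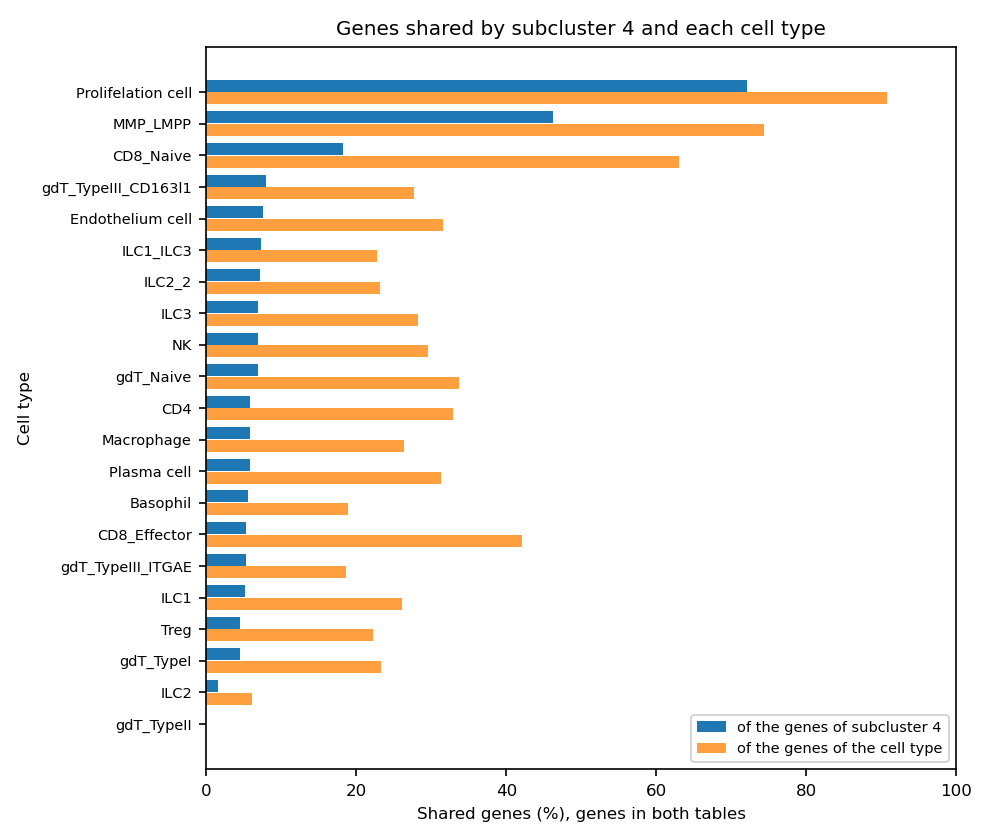
Genes shared by subcluster 4 and each of the 21 cell types, as a percentage of the 451 subcluster 4 genes in both tables (blue) and of the genes of the cell type in both tables (orange). Prolifelation cell has the longest bars, 72.1% and 90.8%, ahead of MMP_LMPP with 46.3% and 74.4%. Over all 820 genes in both tables, 43.7% were listed for Prolifelation cell, 34.3% for MMP_LMPP and 55% for subcluster 4.

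The lists differed at mitosis and at the cytotoxic genes, among others. Of the 28 proteasome, 49 respiratory chain and 27 mitochondrial ribosome members, 26, 41 and 24 were not listed for Prolifelation cell, but the whole cell type table held only 3, 10 and 6 genes of these lists. Prolifelation cell listed 39 of the 43 S phase genes and 46 of the 54 G2 and M phase genes, whereas subcluster 4 listed 32 and 13. Of the 33 G2 and M phase genes listed for Prolifelation cell and not for subcluster 4, 31 were listed for no ILC2 subcluster. Among all Prolifelation cell genes that were not members, 155 were listed for no ILC2 subcluster and 33 for other subclusters only. Only cells kept as ILC2s were subclustered, so a missing mitosis gene is not a trait of subcluster 4 alone. *Birc5*, which encodes survivin, had a listed share of 89.5% for Prolifelation cell and 17.7% for other cells. For *Tpx2*, a spindle assembly factor, the shares were 83.6% and 21.7%. For *Bub1*, a kinase of the spindle checkpoint, they were 68.5% and 9.3%. *Gzma* was listed for Prolifelation cell at 90.4% against 37.5%, together with *Gzmb*, *Eomes*, *Cd7* and *Serpinb6b*, which no ILC2 subcluster listed. *Nkg7* and *Ccl5* were not listed for Prolifelation cell and were listed for NK, ILC1, CD8_Effector and gdT_TypeI, among others for *Nkg7*. Levels are compared only within a table. Shares outside the cluster were higher in the cell type table for 318 of the 325 shared genes (median 51.3% against 33.5%). The paper defines most of the sorted cells as ILC2s. Yet the cell type table gave *Nkg7* 78.0% and *Ccl5* 81.2% outside NK, against 13.4% and 43.7% of all ILC2s in the subcluster table. The cell type shares are therefore not read as cells in which a gene was detected. What they measure was not tested.

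The motifs shown above were sought in the whole RefSeq window of 250 bases before to 50 bases after the start, which was found for 673 of the 802 members. A gene counted as matched if the window of any of its start sites held the motif, so promoters are counted per gene. Genes with more start sites had more chances to match, and no correction was made for this. An E2F match was in 24.8% of these members, in 14.3% of genes in the table that were not members, and in 7.79% of all 27025 genes with a promoter. It was in 14 of 26 S phase promoters (53.8%), in 5 of 12 G2 and M phase promoters (41.7%) and in 19 of 29 replisome promoters (65.5%), the last list having been chosen after the values were seen. Outside the cell cycle lists, it was also in 7 of 13 promoters of nuclear transport and nucleolus members (53.8%). A CHR match was in 9 of 12 G2 and M phase promoters, in 5 of 26 S phase promoters (19.2%) and in 15.5% of members, beside 13.8% of table genes that were not members and 20.2% of all promoters. A CCAAT box was in 44.6% of members, in 41.5% of table genes that were not members and in 41.1% of all promoters, and in 17 of the 26 S phase promoters (65.4%) and 11 of the 12 G2 and M phase promoters. These are counts of letters in fixed windows, and no test was made of them.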

How the data were processed

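Sorted liver and lung ILC2s were profiled by 3′ single-cell RNA sequencing, 1 library per group. Per the study's methods and labels, the authors aligned reads with Cell Ranger to mm10, removed doublets and dead cells by flow cytometry, excluded cells with few detected genes, scaled and log transformed the counts, and found cluster markers in Seurat. No computational doublet caller was described. The deposited shares are fractions, to 3 decimals, of cells with a value above 0, over 4 pooled libraries, and are printed as percentages. In the cell type table such a value is not read as detection of the gene. The deposited log2 fold changes and p-values hold the authors' own comparison and were not used. Which expression assay lay behind each table is not given in the sources used here.

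Subcluster sizes were solved by least squares from genes listed for at least 2 subclusters, since a gene's share over all ILC2s is the same whichever subcluster lists it. The fit was tested on simulated data. From the sizes came the share of gene-positive ILC2s inside subcluster 4 and the share in subclusters not listing a gene. Named genes were the 5 proposed markers, the 15 largest differences, the 10 largest ratios, the 5 lowest differences, listed genes of the S phase, G2 and M phase, cyclin, cytotoxic and ILC2 lists, and the 4 largest differences of each other list. Members and lists were chosen with earlier results of these data known, and 5 lists after the values were seen. Some genes are not reported here by name. Python 3.11.15, pandas 2.3.3 and numpy 2.4.6 were used. GENCODE vM21 and RefSeq GRCm38.p6 match mm10. Cells are not replicates, and no counting interval is given: the deposited tables hold no cell numbers, and a total stated elsewhere was not used.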

Additional observations from a re-analysis of the deposited data

How the results depend on the processing

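The size of subcluster 4 stayed between 9.21% and 9.24% when the genes or subclusters in the fit were changed, including without subcluster 5, an alternative chosen after seeing the data. Requiring a gap of at least 10 points left 757 members, leaving out genes in at least 90% of the other ILC2s left 761, and requiring a ratio of at least 1.5 left 581. The motif counts depended on the strands searched. On the strand of the gene alone, the CCAAT box was in 9 S phase and 7 G2 and M phase promoters (17 and 11 on both strands), and the E2F element in 9 S phase promoters (14 on both). Over all promoters the same search gave 3130 with a CHR, 6408 with a CCAAT box and 1088 with an E2F element, against 5466, 11096 and 2105. This follows from searching 1 strand in place of both. No paired analysis was possible because the deposited tables pool the libraries, of which every group had 1, so no library could be left out either. The tables hold neither depth nor cell numbers, and values near the lowest listed share, such as that of *Gzma*, are printed with no counting interval.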
